A study of Mus musculus with 15 samples.

Results

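EphB receptors are a class of receptor tyrosine kinases, and ephrin-B ligands are the membrane proteins that bind them. The class was taken whole by gene symbol: the 5 mouse receptor genes Ephb1, Ephb2, Ephb3, Ephb4 and Ephb6 and the 3 ligand genes Efnb1, Efnb2 and Efnb3. All 8 were found in the deposited count tables, among 33223 genes listed, and all 8 passed the filter on low counts in every comparison. The libraries were bulk RNA-seq of mouse cortex collected 1 day after controlled cortical impact (CCI), a mechanical brain injury delivered here to the right parietal cortex at moderate strength. All mice carried a floxed EphA4 allele. Those called WT were EphA4f/f, and those called KO were EphA4f/f-VeCadCreERT2, whose Cre is driven by the VE-cadherin promoter and so acts in endothelial cells. Injury was common to all groups, and no uninjured group was part of the data used here. Dissociated cortex was passed over CD45 and CD31 microbeads, and RNA came from the CD45 fraction, labelled as immune cells, or from the flow-through, labelled as all other cortical cells. In the flow-through, 4 WT and 3 KO libraries were used, and in the CD45 fraction 3 WT and 4 KO libraries. Neither fraction was made to isolate the endothelial cells that carry the deletion.

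EphB receptors and ephrin-B ligands meet at contacts between cells, and signals pass both ways: forward through the receptor's kinase and reverse through the ligand's cytoplasmic tail. EphB1, EphB2 and EphB3 are known from axon guidance and from dendritic spines, EphB4 and ephrin-B2 from the veins and arteries of the developing vasculature, and ephrin-B3 from the midline and from myelin, where it repels axons. EphB6 has a kinase domain that lacks catalytic activity. Ephrin-B1 is known from craniofacial and cortical development and is also found on lymphocytes.

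Total counts were 11574414 to 31337948 per library. A further library labelled flow-through WT, numbered replicate 5 here by accession order, stood in the CD45 table. Over 6 neutrophil marker genes it summed to 7338 CPM (counts scaled to a common library total), against 7.76 to 14.7 CPM in the flow-through libraries. It was left out of all comparisons. The 3 pan-leukocyte markers summed to 2043 to 2300.2 CPM in the CD45 libraries and to 2.33 to 3.74 CPM in the flow-through. The flow-through held oligodendrocyte markers at 23130.1 to 39031 CPM in sum, astrocyte markers at 6989.7 to 8522 CPM and neuron markers at 667 to 1412 CPM. The 11 endothelial markers summed to 57.0 to 87.3 CPM in the flow-through and to 323 to 567 CPM in the CD45 fraction. Epha4, the deleted gene, did not differ by genotype beyond the spread between libraries in the flow-through (log2 fold change -0.07, edgeR adjusted p = 0.849) or in the CD45 fraction (-0.17, edgeR adjusted p = 0.989), and in these mixed cells its level does not check the endothelial deletion. In bulk RNA, fewer cells of a type and less RNA per cell cannot be told apart.

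The receptor genes lie on 5 different chromosomes of GRCm38. Ephb1 (ENSMUSG00000032537) occupies chromosome 9 from 101922128 to 102354693 on its minus strand. Ephb2 (ENSMUSG00000028664) spans 136647539 to 136835988 on the minus strand of chromosome 4, and Ephb3 (ENSMUSG00000005958) spans 21204755 to 21223305 on the plus strand of chromosome 16. Ephb4 (ENSMUSG00000029710) spans 137350109 to 137378669 on the plus strand of chromosome 5, and Ephb6 (ENSMUSG00000029869) spans 41605482 to 41620509 on the plus strand of chromosome 6. Of the ligand genes, Efnb1 (ENSMUSG00000031217) lies on the plus strand of chromosome X at 99136130 to 99148991. Efnb2 (ENSMUSG00000001300) lies on the minus strand of chromosome 8 at 8617434 to 8661242, and Efnb3 (ENSMUSG00000003934) on the minus strand of chromosome 11 at 69554092 to 69560205. Exons of Ephb1 overlap those of an opposite-strand gene, Gm26846, over 2.17% of their length, and those of Ephb4 overlap Zan over 0.711%. The library kit was stranded, but the strand setting of the counting is not given in the sources used here, so reads in those overlaps may not be assigned to one gene. The other 6 members share no exon with another annotated gene.

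Promoters of 3 receptors are shown because they belong to the receptor with the largest difference between fractions (Ephb1), the one with the smallest (Ephb4) and the one whose level differed by genotype (Ephb6). Each is the 250 bases before the RefSeq start in GRCm38.p6, written 5′ to 3′ on the strand of the gene. Capitals mark GC boxes, searched as GGGCGG and its reverse complement CCGCCC. Ephb1 is chr9:102354694-102354943 on the minus strand, Ephb4 is chr5:137349859-137350108 on the plus strand, and Ephb6 is chr6:41605261-41605510 on the plus strand.
Ephb1: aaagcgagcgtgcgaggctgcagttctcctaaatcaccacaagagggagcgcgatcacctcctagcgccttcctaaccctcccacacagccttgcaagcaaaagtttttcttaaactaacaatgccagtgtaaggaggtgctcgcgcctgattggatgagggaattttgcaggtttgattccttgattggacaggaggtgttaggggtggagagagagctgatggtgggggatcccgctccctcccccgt
Ephb4: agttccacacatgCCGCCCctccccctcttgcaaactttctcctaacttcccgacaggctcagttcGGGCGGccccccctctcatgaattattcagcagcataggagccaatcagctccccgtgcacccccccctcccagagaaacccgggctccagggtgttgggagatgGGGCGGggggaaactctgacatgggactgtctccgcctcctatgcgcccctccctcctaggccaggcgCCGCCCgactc
Ephb6: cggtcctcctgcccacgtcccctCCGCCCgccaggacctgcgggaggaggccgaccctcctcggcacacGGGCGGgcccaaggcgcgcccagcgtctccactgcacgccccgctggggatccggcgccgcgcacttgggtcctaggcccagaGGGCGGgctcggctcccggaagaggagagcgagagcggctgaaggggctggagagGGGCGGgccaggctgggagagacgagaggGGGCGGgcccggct

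The Ephb1 window held 0 GC boxes and 10 CpG dinucleotides and was 54% GC. The Ephb4 window held 4 GC boxes and 12 CpG at 64% GC, and the Ephb6 window held 5 GC boxes and 27 CpG at 76.8% GC. RefSeq windows were matched for 7 of the 8 members, all but Efnb3, and 4 of these 7 held at least 1 GC box, against 32.7% of 32851 promoters of the same length. All 7 windows were richer in CpG, at 10 to 27, than the median promoter, which held 6. An E-box (CANNTG) was present in 5 of the 7, against 66.2% of all promoters, an RBPJ core (TGGGAA or TTCCCA) in 1, against 21.6%, and a CRE core (TGACG or CGTCA) in 3, against 17.8%. These matches describe letters in the window and were not tested as binding sites.

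Levels of different members were set side by side as RPKM, the CPM of a gene divided by its exon length in kilobases. Efnb3 was by far the most abundant member in the flow-through, at 104 RPKM ± 6.56 (SD, n = 7), and it made up 76.9% of the summed RPKM of the 8 members in WT and 74.7% in KO. Ephb1 was the most abundant receptor there, at 9.14 RPKM ± 1.01, followed by the ligand Efnb1 at 7.56 ± 0.825. Efnb2 at 4.63 ± 0.580, Ephb3 at 4.22 ± 0.693 and Ephb6 at 4.09 ± 1.14 came next, and Ephb4 at 2.05 ± 0.237 and Ephb2 at 1.29 ± 0.159 were lowest (all SD, n = 7). Ranges over the 7 libraries overlapped between Ephb1 and Efnb1, between Efnb2 and Ephb3 and between Ephb3 and Ephb6. The other neighbours in this order did not overlap. These means and ranges pool 4 WT and 3 KO libraries. In WT alone, Efnb2 (4.94 RPKM) stood above Ephb3 (3.87) and Ephb6 (3.25), and Ephb1 and Efnb1 did not overlap. In KO the order of the 3 was Ephb6 (5.20), Ephb3 (4.70) and Efnb2 (4.23).

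The order was different in the CD45 fraction. Efnb1 was the most abundant member there, at 1.95 RPKM ± 0.364 (SD, n = 7), ahead of Efnb3 at 1.13 ± 0.325 and Ephb4 at 0.8291 ± 0.221. Ephb6 at 0.661 ± 0.445, Efnb2 at 0.656 ± 0.160 and Ephb3 at 0.346 ± 0.120 followed, and Ephb1 at 0.110 ± 0.0562 and Ephb2 at 0.0440 ± 0.0298 were lowest. Over the 7 libraries of both genotypes, only Ephb3 and Ephb1 were neighbours in this order without overlapping ranges.

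Within the receptor class, Ephb1 took 44.1% ± 2.88 of the summed receptor RPKM in the flow-through and 5.55% ± 2.32 in the CD45 fraction. Ephb4 took 9.89% ± 1.10 in the flow-through and 43.4% ± 12.1 in the CD45 fraction (all SD, n = 7). Among the ligands, Efnb3 took 89.5% ± 1.00 in the flow-through and 30.1% ± 5.18 in the CD45 fraction, and Efnb1 took 6.52% ± 0.740 and 52.3% ± 5.80. In the CD45 fraction Efnb1 stood first among the ligands in all 7 libraries, and Ephb4 first among the receptors in 5 of 7, with Ephb6 first in KO replicates 2 (47.5% against 34.9%) and 4 (36.5% against 25.7%). The summed ligand RPKM was 4.91 to 6.94 times the summed receptor RPKM in the flow-through libraries and 1.35 to 2.28 times in the CD45 libraries. Lengths here are exon unions that include untranslated sequence, and the order depends on them: per kilobase of coding sequence, Efnb2 stood at 33.6 RPKM ± 4.05 (SD, n = 4) in flow-through WT, above Efnb1 at 23.9 ± 2.23 and Ephb1 at 20.3 ± 2.49. Efnb3 stayed first there, at 325 RPKM ± 24.4. In CD45 WT the coding-length order began with Efnb1 at 6.80 RPKM ± 1.08, Efnb2 at 4.46 ± 0.848 and Efnb3 at 3.25 ± 0.576 (SD, n = 3).

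**Figure D1:**
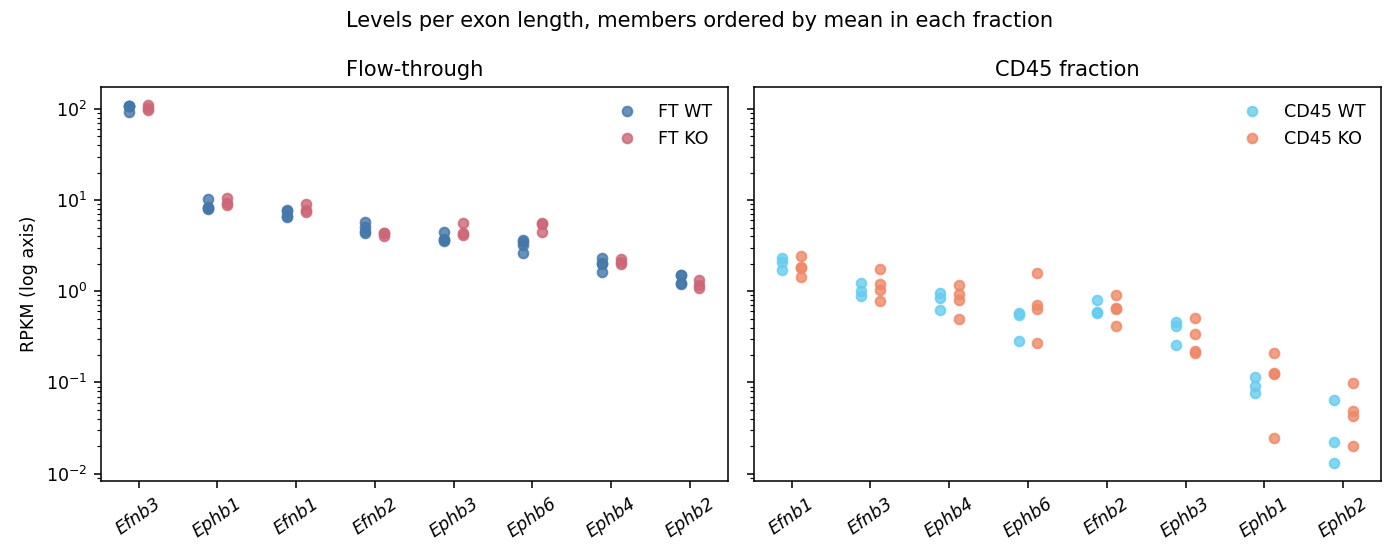
RPKM by exon length (log axis) of each member in the flow-through libraries and in the CD45 libraries. Members are ordered from left to right by their mean in that fraction. Each point is 1 library, coloured by group. Efnb3 stands apart in the flow-through at a mean of 104 RPKM, and Efnb1 leads the CD45 order at 1.95 RPKM.

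The comparison of fractions asks how the members are distributed between immune cells and the rest of the injured cortex. All 8 members were lower in the CD45 fraction than in the flow-through. In CPM, which scale by library totals only, the 7 libraries of each fraction did not overlap for any member. The background for this count is high: 44.7% of the 18098 genes tested were called lower in the CD45 fraction (edgeR quasi-likelihood test, adjusted p under 0.05), and 49.7% were lower without overlap. The members differed from each other in how far apart the fractions lay, from a log2 fold change of -6.00 for Efnb3 to -0.79 for Ephb4. Markers of the flow-through cell types moved with these differences: all 12 neuron, 8 astrocyte and 7 oligodendrocyte markers were called lower in the CD45 fraction, with median log2 fold changes of -2.47, -5.43 and -5.89, none of them at 0 in any library. Their part in the result was not tested.

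Ephb1, a receptor of axon guidance and synapses, ranged from 56.1 to 74.1 CPM in the flow-through, with a median of 62.3. In the CD45 fraction it ranged from 0.173 to 1.46 CPM, with a median of 0.810. The highest CD45 library thus lay far below the lowest flow-through library, and the CD45 libraries held only 2 to 30 counts of the gene. The log2 fold change was -5.84 (edgeR adjusted p = 3.43e-14, SE 0.183, n = 7 against 7). Ephb2, whose receptor binds the NMDA receptor at excitatory synapses, ranged from 13.7 to 18.9 CPM in the flow-through (median 15.6) and from 0.165 to 1.24 CPM in the CD45 fraction (median 0.534). The CD45 libraries were again low throughout, at 4 to 24 counts, and the log2 fold change was -4.42 (edgeR adjusted p = 4.34e-10, SE 0.287).

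Ephb3, which acts with Ephb1 and Ephb2 in commissural axons and spines, ranged from 23.95 to 36.96 CPM in the flow-through (median 27.8) and from 1.40 to 3.40 CPM in the CD45 fraction (median 2.28). Its log2 fold change was -3.08 (edgeR adjusted p = 1.17e-10, SE 0.184). The receptor was detected in every CD45 library, at 17 counts or more. Ephb6, the kinase-inactive receptor, ranged from 9.95 to 21.1 CPM in the flow-through (median 13.9) and from 1.02 to 6.02 CPM in the CD45 fraction (median 2.20). The log2 fold change was -2.22 (edgeR adjusted p = 2.6e-06, SE 0.283). The CD45 libraries varied more for Ephb6 than for Ephb3, with a coefficient of variation of 67.3% against 34.7%. For Ephb6, KO replicate 2 stood at 6.02 CPM and the remaining CD45 libraries at 1.02 to 2.68 CPM.

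Ephb4, the receptor of venous endothelium, was the member nearest to equal between fractions. It ranged from 7.47 to 10.9 CPM in the flow-through (median 9.46) and from 2.32 to 5.43 CPM in the CD45 fraction (median 3.87). These CPM ranges, which carry no TMM scaling, did not overlap. TMM factors differed between fractions by -0.53 on the log2 scale, and overlap after that scaling was not tested. The log2 fold change was -0.79 (edgeR adjusted p = 0.000258, SE 0.162). This call depended on the treatment of base composition: with each library's trend of counts on GC content and exon length as an offset, the log2 fold change was -0.30 (edgeR adjusted p = 0.0925) and Ephb4 was no longer called, while the other 7 members were. The scale of the fold changes depends on the scaling of libraries, which moved the median of all genes from -0.05 under TMM to -0.58 under library totals alone. Relative to that median, Ephb4 lay at -0.74 under both, and at -0.16 with the GC and length offset.

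The 3 ligands also differed from each other. Efnb3 ranged from 295 to 351 CPM in the flow-through (median 342) and from 2.51 to 5.63 CPM in the CD45 fraction (median 3.29), a log2 fold change of -6.00 (edgeR adjusted p = 5.01e-16, SE 0.134). The lowest flow-through library of Efnb3 lay far above the highest CD45 library. Efnb2, the ligand of arterial endothelium and a partner of VEGF receptors, ranged from 27.4 to 39.3 CPM and from 2.87 to 6.26 CPM, with medians of 29.98 and 4.41, and its log2 fold change was -2.28 (edgeR adjusted p = 2.3e-10, SE 0.144). Efnb1 ranged from 22.3 to 31.1 CPM and from 4.92 to 8.49 CPM, with medians of 26.4 and 6.40, and its log2 fold change was -1.42 (edgeR adjusted p = 6.48e-09, SE 0.116). Efnb1 had the smallest difference of the 3 ligands, and none of the 3 overlapped between fractions.

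Ephb4 and Efnb2, known from the developing vasculature, went the other way from endothelial markers. All 11 endothelial markers were called higher in the CD45 fraction, with a median log2 fold change of 3.34, whereas Ephb4 and Efnb2 were lower there. Of all genes tested, 41.4% were called higher. Per 1000 CPM of endothelial markers, Ephb4 stood at 98.6 to 171 CPM in the flow-through libraries and at 7.17 to 11.6 CPM in the CD45 libraries. By the same ratio, Efnb2 stood at 329 to 538 CPM in the flow-through and at 7.44 to 15.4 CPM in the CD45 fraction. The marker sums in this ratio were 57.0 to 87.3 CPM in the flow-through and 323 to 567 CPM in the CD45 fraction. The cortex had been passed over CD31 microbeads, and their part in these sums and ratios was not tested. Efnb3 per 1000 CPM of oligodendrocyte markers stood at 8.86 to 14.9 CPM in the flow-through and at 1.86 to 10.5 CPM in the CD45 fraction, so the ranges of this ratio overlapped although those of Efnb3 itself did not.

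**Figure D2:**
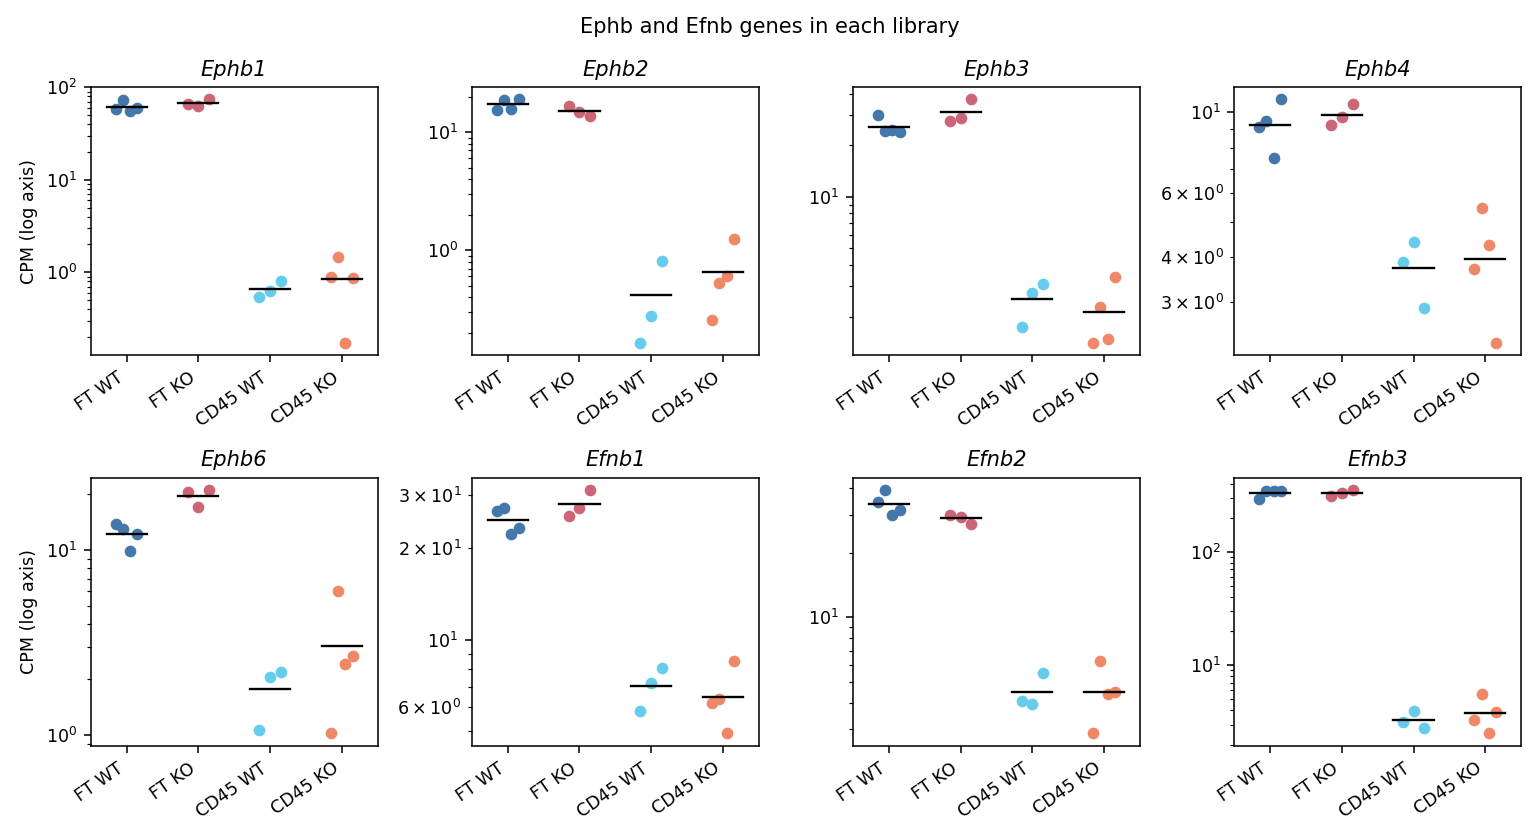
CPM (log axis, scaled separately for each gene) of the 8 members in the 14 libraries used, by group. Points are libraries and horizontal bars are group means. Every member is lower in both CD45 groups than in both flow-through groups, and Ephb6 is the member whose flow-through KO and WT points are separate.

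The comparison of genotypes in the flow-through asks whether deletion of EphA4 in endothelial cells is accompanied by other levels of the EphB system in the remaining cortical cells. Ephb6 rose in KO, by 0.70 on the log2 scale, and the other 7 members did not pass the test. The background is 1.57% of the 16546 genes tested called by edgeR in either direction, 1.42% higher and 0.151% lower in KO, while 5.19% were higher and 6.78% lower without overlap between the groups. Ephb6 was also the only member without overlap.

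Ephb6 stood at 13.9, 13.0, 9.95 and 12.3 CPM in the 4 WT libraries and at 20.6, 17.1 and 21.1 CPM in the 3 KO libraries. All 3 KO libraries lay above all 4 WT libraries. The means were 12.3 CPM ± 1.69 (SD, n = 4) and 19.6 CPM ± 2.20 (SD, n = 3), and the log2 fold change was 0.70 (edgeR adjusted p = 0.0142, SE 0.129) with a 95% interval from 0.42 to 0.98. The call held in 10 of 15 alternative settings: it was lost without KO replicate 1 (0.66, edgeR adjusted p = 0.0717), without KO replicate 3 (0.65, adjusted p = 0.0522) and with the GC and length offset (0.56, adjusted p = 0.0513). It was also lost in the fit of both fractions together (0.71, edgeR adjusted p = 0.913) and with flow-through WT replicate 5 entered as labelled (0.78, adjusted p = 0.962).

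Neuron markers moved in the same libraries. Their sum was 926, 804, 667 and 830.2 CPM in WT and 1412, 1279.7 and 993 CPM in KO, so that the groups did not overlap. Of the 12 markers, 4 rose in KO by the same edgeR test (Syn1, Slc17a7, Slc12a5 and Nrgn), 1 fell (Gad2) and 7 were not called, with a median log2 fold change of 0.76, and none was at 0 in any library. Ephb6 per 1000 CPM of neuron markers stood at 14.98, 16.2, 14.9 and 14.8 CPM in WT and at 14.6, 13.3 and 21.3 CPM in KO. By this ratio, KO replicates 1 and 2 lay below every WT library and KO replicate 3 above them. The 6 neuroblast markers also separated the flow-through groups, in the other direction: their sum was 887, 1026, 864 and 838 CPM in WT and 751, 710.4 and 543 CPM in KO. None of the 6 was called by edgeR, all 6 log2 fold changes were negative, with a median of -0.38, and none was at 0 in any flow-through library. The part of the neuron and neuroblast markers in the Ephb6 result was not tested.

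**Figure D3:**
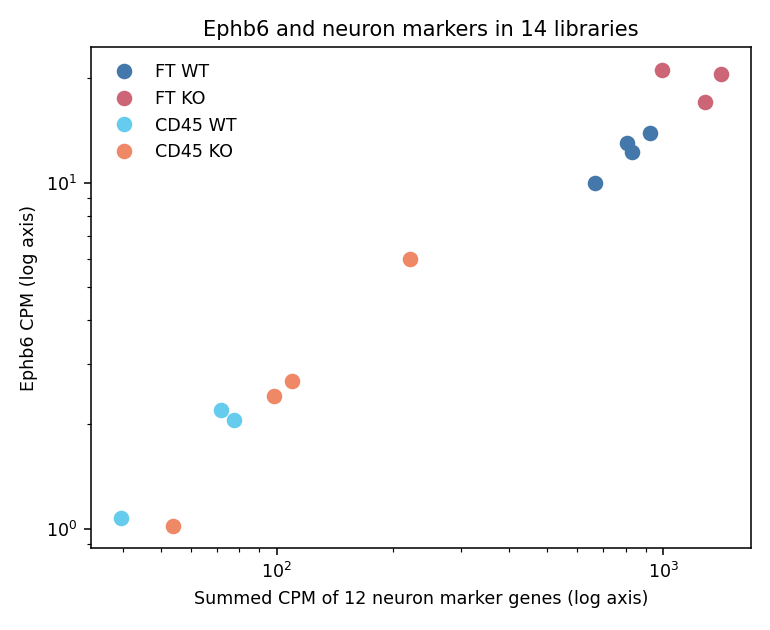
Ephb6 CPM against the summed CPM of 12 neuron marker genes (both log axes) in the 14 libraries used. Each point is 1 library, coloured by group. The flow-through KO libraries lie highest on both axes, at 17.1 to 21.1 CPM of Ephb6 and 993 to 1412 CPM of neuron markers.

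Of the other receptors, Ephb3 stood at 29.9, 24.2, 24.6 and 23.95 CPM in WT and at 27.8, 28.8 and 36.96 CPM in KO. WT replicate 1 lay above 2 of the 3 KO libraries, and the log2 fold change of 0.31 (SE 0.123, 95% interval 0.04 to 0.57) did not pass (edgeR adjusted p = 0.359). Ephb1 stood at 57.7, 72.6, 56.1 and 59.6 CPM in WT and at 65.6, 62.3 and 74.1 CPM in KO, with a log2 fold change of 0.16 (edgeR adjusted p = 0.612, SE 0.098). Its groups overlapped through WT replicate 2. Ephb2 stood at 15.3, 18.8, 15.6 and 18.9 CPM in WT and at 16.7, 14.7 and 13.7 CPM in KO, with a log2 fold change of -0.16 (edgeR adjusted p = 0.674, SE 0.117). Ephb4 stood at 9.13, 9.46, 7.47 and 10.9 CPM in WT and at 9.24, 9.74 and 10.5 CPM in KO, with a log2 fold change of 0.12 (edgeR adjusted p = 0.812, SE 0.137). The KO libraries of Ephb4 lay within the WT range. The 95% intervals reached from -0.05 to 0.37 for Ephb1, from -0.42 to 0.09 for Ephb2 and from -0.18 to 0.41 for Ephb4, so larger differences in either direction were outside them.

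None of the 3 ligands passed the test in the flow-through. Efnb1 stood at 26.4, 27.04, 22.3 and 23.3 CPM in WT and at 25.5, 27.02 and 31.1 CPM in KO, a log2 fold change of 0.19 (edgeR adjusted p = 0.542, SE 0.105). Efnb2 stood at 34.5, 39.3, 29.9 and 31.7 CPM in WT and at 29.98, 29.5 and 27.4 CPM in KO, a log2 fold change of -0.20 (edgeR adjusted p = 0.522, SE 0.103). WT replicate 3 of Efnb2 lay among the KO libraries. Efnb3 stood at 295, 342, 346 and 345 CPM in WT and at 312, 329 and 351 CPM in KO, a log2 fold change of 0.02 (edgeR adjusted p = 0.958, SE 0.089). Its 95% interval, from -0.17 to 0.21, was the narrowest of the 8.

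In the CD45 fraction no member passed the test between genotypes, and no member separated the groups. The background is 0% of 15660 genes called by edgeR, with 693 genes at an unadjusted p under 0.05 and 5 genes called by DESeq2, while 5.09% of genes did not overlap between the groups. Efnb1, the most abundant member there, stood at 5.85, 7.21 and 8.06 CPM in WT and at 6.22, 6.40, 4.92 and 8.49 CPM in KO. Its log2 fold change was -0.14 (edgeR adjusted p = 0.983, SE 0.211), with a 95% interval from -0.61 to 0.33. The KO libraries reached both below and above the WT range.

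Ephb6 stood at 1.07, 2.06 and 2.20 CPM in CD45 WT and at 1.02, 6.02, 2.42 and 2.68 CPM in CD45 KO. KO replicate 2 was the highest library and KO replicate 1 the lowest. The log2 fold change was 0.73 (edgeR adjusted p = 0.974, SE 0.540), with a 95% interval from -0.48 to 1.95, and without KO replicate 2 it was 0.16. The neuron markers summed to 39.4, 77.6 and 71.6 CPM in CD45 WT and to 53.7, 221, 98.2 and 109 CPM in CD45 KO, with KO replicate 2 again highest. Their part in the Ephb6 values was not tested.

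Ephb4 stood at 3.87, 4.40 and 2.89 CPM in CD45 WT and at 3.70, 5.43, 4.32 and 2.32 CPM in CD45 KO, with a log2 fold change of 0.05 (edgeR adjusted p = 0.992, SE 0.293). Efnb2 stood at 4.08, 3.92 and 5.47 CPM in WT and at 2.87, 6.26, 4.41 and 4.48 CPM in KO, with a log2 fold change of -0.03 (edgeR adjusted p = 0.993, SE 0.279). In both genes the KO libraries spanned the WT range. Ephb3 had a log2 fold change of -0.26 (edgeR adjusted p = 0.979, SE 0.369) and Efnb3 of 0.18 (edgeR adjusted p = 0.983, SE 0.282). Ephb1, at 2 to 30 counts per library, and Ephb2, at 4 to 24, were too thinly covered for a narrow estimate, with 95% intervals from -0.79 to 1.55 and from -0.94 to 2.12. A rise in KO of the size seen for Ephb6 in the flow-through lies inside the intervals of Ephb1, Ephb2, Ephb4, Ephb6 and Efnb3 in this fraction, and outside those of Efnb1, Efnb2 and Ephb3.

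The genotype difference was also compared between fractions, by the interaction of genotype and fraction over the 14 libraries. No member passed (edgeR adjusted p from 0.747 to 1.00), and 0% of the 18098 genes were called, with 1305 genes at an unadjusted p under 0.05 and 45 called by DESeq2. The rise of Ephb6 in the flow-through is therefore not shown to differ from its value in the CD45 fraction.

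**Figure D4:**
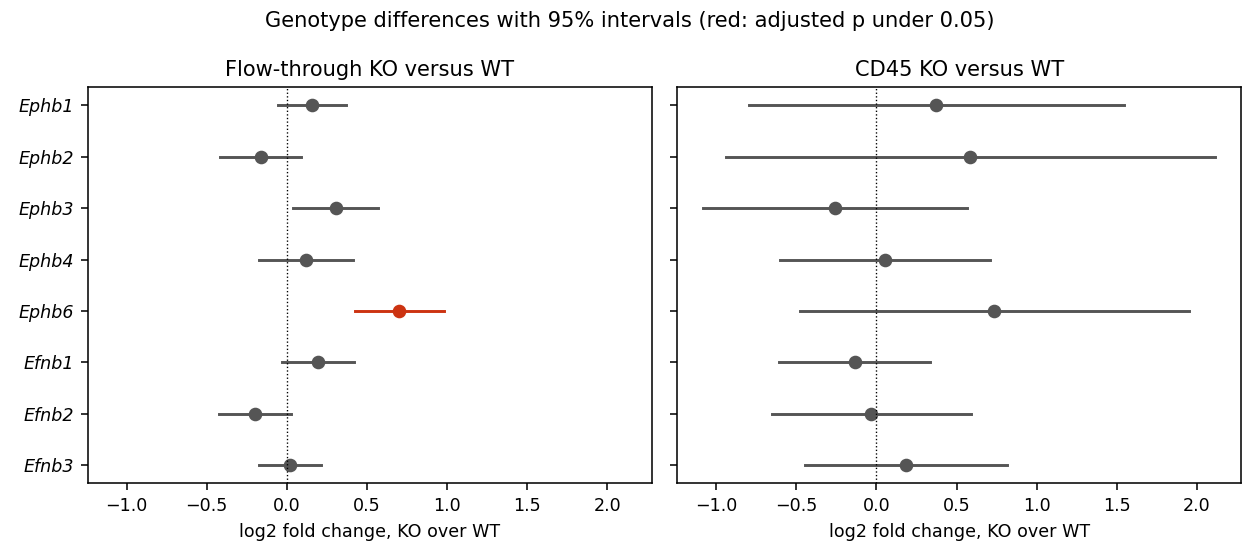
Log2 fold change of KO over WT for each member in the flow-through (left) and in the CD45 fraction (right). Points are edgeR estimates and lines are 95% intervals, and red marks an adjusted p under 0.05. Ephb6 in the flow-through, at 0.70, is the only member in red, and the intervals are wider in the CD45 fraction.

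The genes whose log2 CPM profile over the 14 libraries was most like that of each member were found among 15098 genes, by the root mean square difference between profiles centred on their own mean. The closest match of all was Pigyl to Efnb1, at 0.0885 log2 units, with Ccdc85c next at 0.129. Soga3 (0.0941) and Opalin (0.121) were closest to Efnb3, and Ccdc80 (0.169) and Ttc3 (0.182) to Efnb2. Opalin is one of the 7 oligodendrocyte markers used here. Among receptors, Slc22a23 (0.132) and Lrrc4b (0.164) were closest to Ephb1, Crb2 (0.182) and Bicc1 (0.185) to Ephb2, and Tmem28 (0.206) and Ckb (0.211) to Ephb3. Tmem45a (0.169) and Fancf (0.172) were closest to Ephb4, and Syp (0.176), which encodes a synaptic vesicle protein, and Cyp46a1 (0.185) to Ephb6. The 14 libraries span both fractions, so these distances include the difference between fractions.

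The wider pathway was described by 4 lists with 47 genes. In the flow-through, 1 of 18 genes of EphB forward signalling rose in KO, none of 10 of ephrin-B reverse signalling, none of 7 of Eph and ephrin cleavage and 1 of 12 surface partners, and none fell, against 1.42% of all genes called higher. The median log2 fold changes of the lists were 0.04, -0.06, -0.02 and 0.04, beside -0.01 for all genes tested. Kalrn, which encodes the exchange factor kalirin that acts below EphB2 in spines, stood at 44.0, 46.3, 44.9 and 46.5 CPM in WT and at 71.2, 62.0 and 57.4 CPM in KO. All KO libraries lay above all WT libraries, with a log2 fold change of 0.51 (edgeR adjusted p = 0.0118, SE 0.091). Grin1, the obligate NMDA receptor subunit, stood at 22.6, 18.2, 15.8 and 17.1 CPM in WT and at 35.5, 27.3 and 34.7 CPM in KO, also without overlap, with a log2 fold change of 0.85 (edgeR adjusted p = 0.0057, SE 0.135). Exons of Grin1 overlap the antisense gene Grin1os over 13.5% of their length, so part of its reads may be unassigned or shared. Both calls were lost with the GC and length offset (0.38 for Kalrn, edgeR adjusted p = 0.126, and 0.68 for Grin1, adjusted p = 0.102), and that of Kalrn also without KO replicate 1 (0.42, adjusted p = 0.0736). Both were lost too in the fit of both fractions together and with flow-through WT replicate 5 entered as labelled. The neuron marker sums given above differed between the same libraries, and their part in these results was not tested.

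In the CD45 fraction none of the pathway genes tested passed between genotypes, at 18, 9, 6 and 12 genes tested in the 4 lists, with Grip2 and Rhbdl2 below the filter. The median log2 fold changes were 0.06, -0.03, -0.04 and 0.40, beside 0.02 for all genes. The 12 surface partners had positive log2 fold changes throughout, as did the 12 neuron markers in this comparison, whose median was 0.84. Positive signs throughout were not particular to neuron markers: the 7 microglia and the 5 monocyte and macrophage markers had them too. Of the 6 neutrophil markers 1 was positive, and both ependymal markers tested were negative. The share of all genes with a positive sign was not counted. None of these genes passed the test, and the part of the neuron markers was not tested.

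Between fractions, the pathway genes did not follow the members in one direction, while every one of the 47 was called by edgeR. Of all 18098 genes tested, 86.1% were called: 41.4% of the tested genes were higher in the CD45 fraction and 44.7% lower. Of the forward signalling genes, 9 were higher and 9 lower in the CD45 fraction, with a median log2 fold change of 0.16. Vav3, a guanine nucleotide exchange factor, averaged 62.9 CPM ± 4.22 in the CD45 fraction and 15.02 ± 1.56 in the flow-through, with 2.60 as the log2 fold change, and Tiam1, a Rac exchange factor, 63.5 ± 7.26 and 16.7 ± 2.45, a log2 fold change of 2.42 (all SD, n = 7). Ngef, or ephexin-1, averaged 3.58 CPM ± 1.39 and 101 ± 10.02, a log2 fold change of -4.40, and Kalrn 5.23 ± 2.46 and 53.2 ± 10.5, a log2 fold change of -2.94. The other exchange factors of the list, Arhgef15 (1.99), Itsn1 (0.97) and Vav2 (0.52), were higher in the CD45 fraction too, which makes 5 higher and 2 lower.

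Of the ephrin-B reverse signalling genes, 3 were higher and 7 lower in the CD45 fraction, with a median of -1.38. Dab2, an endocytic adaptor, averaged 1271 CPM ± 155 in the CD45 fraction and 39.5 ± 3.98 in the flow-through, with 5.54 as the log2 fold change, and Sdcbp, which encodes the PDZ protein syntenin, 1099 ± 98.1 and 256 ± 29.7, a log2 fold change of 2.64. Grip1, a PDZ scaffold that binds ephrin-B tails, averaged 0.384 CPM ± 0.303 and 13.6 ± 2.59, a log2 fold change of -4.81. Ptpn13, a phosphatase with PDZ domains, averaged 1.78 CPM ± 0.435 and 48.9 ± 6.54, a log2 fold change of -4.22.

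Of the cleavage genes, 5 were higher and 2 lower, with a median of 1.70. Mmp9, a gelatinase known from neutrophils, averaged 574 CPM ± 204 in the CD45 fraction and 1.06 ± 0.210 in the flow-through, with 9.65 as the log2 fold change, beside the neutrophil marker sums of 5663 to 9837 CPM and 7.76 to 14.7 CPM. Psen2, a gamma-secretase subunit, averaged 62.3 CPM ± 6.57 and 12.4 ± 1.01, a log2 fold change of 2.87. Rhbdl2, a rhomboid protease, was lower in the CD45 fraction, at 0.213 CPM ± 0.220 against 3.05 ± 0.611 and a log2 fold change of -3.22. Mmp2, a gelatinase, was also lower, at 6.88 CPM ± 1.23 against 14.1 ± 2.08 and a log2 fold change of -0.49.

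Of the surface partners, 3 were higher and 9 lower, with a median of -1.92. The VEGF receptor genes Kdr and Flt4 averaged 31.6 CPM ± 10.9 and 7.62 CPM ± 3.07 in the CD45 fraction against 3.92 ± 1.08 and 1.09 ± 0.481 in the flow-through, log2 fold changes of 3.57 and 3.28. Kdr is also one of the 11 endothelial markers. The reelin pathway genes Vldlr and Dab1 averaged 2.38 CPM ± 0.908 and 0.631 CPM ± 0.364 in the CD45 fraction against 127 ± 9.58 and 25.8 ± 1.22 in the flow-through, log2 fold changes of -5.33 and -4.89.

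**Figure D5:**
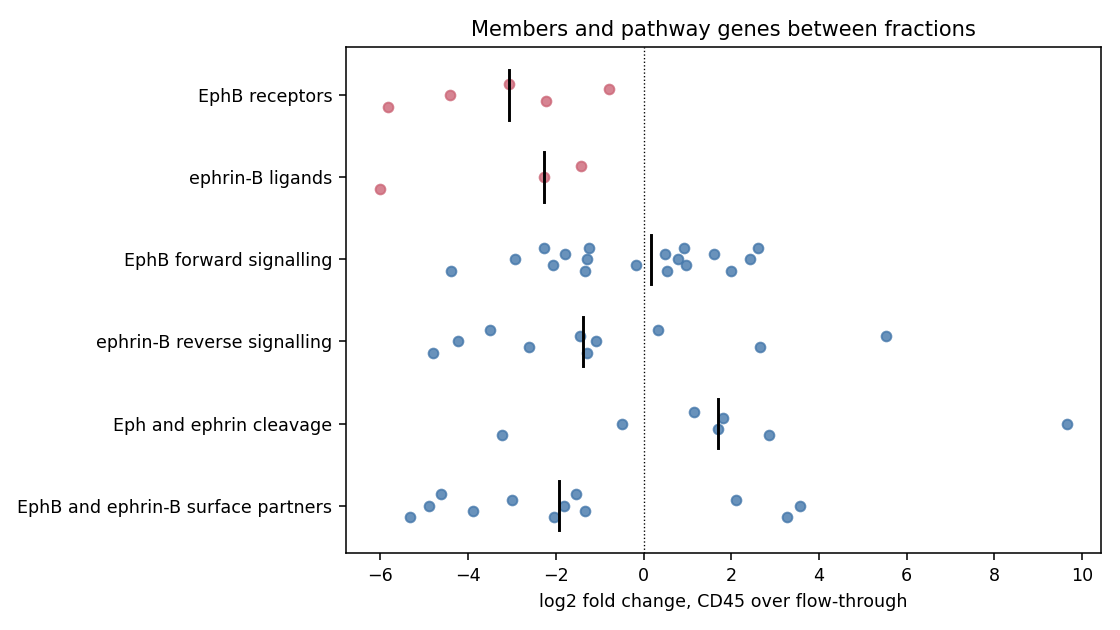
Log2 fold change of the CD45 fraction over the flow-through for the 5 receptors, the 3 ligands and the 47 pathway genes in 4 lists. Each point is 1 gene and black bars are list medians. All 8 members lie left of 0, while the lists spread to both sides, from Mmp9 at 9.65 to Vldlr at -5.33.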

How the data were processed

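Per the labels, RNA of 15 samples was sequenced from libraries made with a stranded mRNA kit. The authors deposited 1 count table per fraction, with raw counts of reads for each gene; their tables of normalized values were not used. Per the submitters' processing notes, the tools were Trim Galore, FastQC, STAR 2.7.9a and DESeq2, and the build was GRCm38. Which tool, strand setting and annotation were used for counting is not given in the sources. Of 33223 genes, 33130 matched GENCODE M21, which gave positions, GC content and exon lengths. CPM are counts divided by the library total, without TMM scaling, and RPKM divide these by the exon union.

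Counts were tested with edgeR 4.0.16 in R 4.3.3 (robust quasi-likelihood test, TMM scaling, filterByExpr at 10 counts in enough libraries and 15 in total), with Benjamini-Hochberg adjustment over all genes tested and calls at an adjusted p under 0.05. TMM factors differed between fractions by -0.53 on the log2 scale (CD45 minus flow-through). Unscaled CPM ratios therefore exceed the fitted differences for genes lower in the CD45 fraction, and fall short of them for genes higher there. Each genotype comparison was fitted within its fraction; the comparison of fractions and the interaction used all 14 libraries. The tests were first tried on simulated counts in which few genes were changed. That setting is unlike the comparison of fractions, where 86.1% of genes were called, and no result here rests on it. Alternatives were DESeq2 1.42.0, other scalings, no filter, a GC and length offset, each library left out, a joint fit and other placements of the library whose label and table disagree. Library totals alone and GENCODE coding length were added after the data were seen. The GC and length offset was corrected after its first output had been seen: each library's trend was centred at its median, so that library size was not adjusted again, and the Ephb6 call was lost with the corrected offset.

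Replicate numbers follow accession order and pair nothing. The labels name no animals, so a p-value here covers the spread among samples, part of which may be technical. Within groups, 18 library pairs were compared, and their chi-square per degree of freedom was 10.2 to 55.2, far from that of 1 library deposited again. Fractions may share animals. The genes named are the 8 members, Epha4, pathway genes called between genotypes, the 2 largest rises and falls per pathway list between fractions, and the 2 genes most like each member (on log2 of CPM plus 0.5, leaving out predicted gene models). Exceptions are the neuron markers named beside Ephb6 and the further exchange factors Arhgef15, Itsn1 and Vav2, chosen after their values were seen. The members, pathway lists and marker lists were chosen with earlier results of these data known.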

Additional observations from a re-analysis of the deposited data

Results flagged for a closer look

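Ephb3 in flow-through WT had 1 library far from the other 3: replicate 1 stood at 29.9 CPM, above 23.95 to 24.6 CPM. Efnb3 in flow-through WT had 1 low library, again replicate 1, at 295 CPM, below 342 to 346 CPM. These are 2 of 18 groups of 4 or more libraries tested, and chance flags about 1 in 20.

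The library labelled flow-through WT and numbered replicate 5 here, which was in no comparison, had more of 3 members than any CD45 WT library. It held Ephb1 at 1.01 CPM, against 0.535 to 0.810 CPM in the 3 CD45 WT libraries, Ephb6 at 5.65 CPM, against 1.07 to 2.20 CPM, and Efnb3 at 4.501 CPM, against 2.81 to 3.96 CPM. All 3 values lay far below the flow-through WT libraries of the comparisons, of which the lowest were 56.1, 9.95 and 295 CPM. Its neuron markers summed to 167 CPM, above the 39.4 to 77.6 CPM of CD45 WT, and their part in these values was not tested.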

How the results depend on the processing

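In the comparison of fractions, all 8 members kept their direction in 24 alternatives, and the call of Ephb4 was lost in 1 of them, the GC and length offset. In flow-through KO against WT, where 260 genes were called, DESeq2 called 416, the fit without a filter 629, the joint fit 30 and the fit with replicate 5 as labelled 0. Leaving out 1 library gave 134 to 287 calls: 144 without WT replicate 2, 159 without WT replicate 3, 134 without KO replicate 1 and 163 without KO replicate 2. The number of members called was 0 under the GC and length offset, the joint fit and replicate 5 as labelled, and 0 to 1 when 1 library was left out. Among members that were not called, and for Epha4, signs turned in the flow-through as follows. With replicate 5 as labelled, Ephb2 was at 0.14, Efnb2 at 0.050 and Epha4 at 0.18 on the log2 scale. With the GC and length offset, Ephb4 was at -0.0037 and Efnb3 at -0.078, and under library totals Efnb3 was at -0.0055. Efnb3 ran from -0.026 to 0.056 when 1 library was left out. The cause was not tested.

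In CD45 KO against WT, DESeq2 called 5 genes and leaving out 1 library gave 0 to 1. Leaving out 1 library moved Ephb4 between -0.14 and 0.23, Efnb2 between -0.23 and 0.14 and Efnb3 between -0.051 and 0.32, and Efnb2 was at 0.0084 with replicate 5 placed in CD45 WT. The interaction called 45 genes with DESeq2, 15 without a filter, 0 to 2 with 1 library left out and 1 with replicate 5 placed in CD45 WT, and 0 members in all 22 alternatives. The share of Efnb3 in flow-through KO was 75.8% per coding length. A setting with the length of RefSeq proteins was not run, since that table was not used here. No paired analysis was possible because the labels carry no replicate numbers. The depth limits Ephb1 and Ephb2 in the CD45 fraction, at 2 to 30 and 4 to 24 counts per library.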
